A study of Mus musculus with 4 samples.

Results

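*B2m*, *H2-K1*, *H2-D1*, *Tap1*, *Tap2*, *Tapbp*, *Psmb8*, *Psmb9*, *Nlrc5* and *Erap1* are genes of MHC class I antigen presentation. They were taken as a list of symbols and not by a threshold on any value, and 10 of 10 were present among the 32285 genes counted for the first experiment and among the 31053 genes counted for the second. Proteasomes cut cytosolic proteins into peptides, the transporter formed by the *Tap1* and *Tap2* products carries the peptides into the endoplasmic reticulum, and the aminopeptidase *Erap1* trims them. Tapasin, the product of *Tapbp*, holds the transporter next to empty class I molecules, which are made of a heavy chain (*H2-K1* or *H2-D1* in these mice) and beta-2 microglobulin (*B2m*), and loaded molecules travel to the surface, where CD8 T cells and NK cells read them. Interferons raise the whole set, *Psmb8* and *Psmb9* encode catalytic subunits that turn the proteasome into the immunoproteasome, and *Nlrc5* is the transactivator that works at class I promoters.

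The tumors were grown in wild-type C57BL/6 mice from B16-F10, a mouse melanoma line, here a single clone that made the green fluorescent protein ZsGreen (ZsG) when doxycycline was given. All mice drank doxycycline with sucrose before the tumors were taken on day 8, and ZsG in an immune cell was used as the mark of material from tumor cells. The first experiment (CD45 sort) took all CD45-positive cells and the second (T cell sort) those that were also TCRb-positive by the labels, where the study's methods name CD3. Each was gated by ZsG, and the negative and the positive gate each gave 1 droplet library of 3' single-cell RNA sequencing. The age and sex of the mice and the number that gave each library are not given in the sources used here. With 1 library per gate there was no replicate, so no p-value is given, and all 95% intervals (in square brackets) cover counting error only.

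The files gave a unique molecular identifier (UMI) count per gene and cell barcode. The CD45 sort held 5437 ZsG-negative barcodes with 47537541 UMIs and 5168 ZsG-positive barcodes with 56510578 UMIs, and the T cell sort held 1136 with 10030971 and 2396 with 22100220. The labels contradict each other on which barcode suffix of the T cell sort is which gate. The suffix with 2396 barcodes was read as ZsG-positive, as 1 of the labels has it, and every ZsG direction in that sort rests on this reading. The study's own limits left 4698 and 4124 cells of the CD45 sort and 659 and 780 of the T cell sort. In the T cell sort the limit on CD3 transcripts alone took the ZsG-positive cells from 1879 to 780 and the ZsG-negative ones from 948 to 659, although the cells had been sorted as T cells. The libraries of the CD45 sort shared 6 barcodes, of which 5 were kept, and those of the T cell sort shared 1, which was not kept. Although the labels call the cells lymphocytes, 3157 of the 4124 ZsG-positive cells of the CD45 sort were monocyte/macrophage-like by their markers. T cell clusters led by macrophage genes such as *Lyz2* were left out of the T cells, 17 ZsG-negative and 103 ZsG-positive cells of the CD45 sort (which left 1516 and 114) and 9 and 60 of the T cell sort (which left 650 and 720). The levels below are CPM, UMIs of a gene per 1000000 UMIs of the same cells. A log2 ratio compares 2 such levels, and a gene counts as past the fold where the ratio reached 1.5-fold in either direction, its interval excluded no change, and both sides together held at least 100 UMIs.

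Of the 10 genes, 7 lie in the MHC region of chromosome 17 (GRCm38, GENCODE annotation). *Psmb9* (chr17:34181987-34187764, minus strand), *Tap1* (chr17:34187553-34197225, plus), *Psmb8* (chr17:34197721-34201454, plus) and *Tap2* (chr17:34203527-34216321, plus) are neighbors there, with *H2-K1* (chr17:33996017-34000347, minus), *Tapbp* (chr17:33915899-33929292, plus) and *H2-D1* (chr17:35262730-35267499, plus) around them. *B2m* (chr2:122147686-122153083, plus), *Nlrc5* (chr8:94434356-94527272, plus) and *Erap1* (chr13:74639568-74693201, plus) lie on other chromosomes. *H2-K1* and *H2-D1* are close relatives, so their reads could be mixed in counting. In none of the 10 genes was any of the 411 windows of 90 bases, the length of the sequenced insert, in the last 500 bases of the transcript found again in another gene. *Tapbp* overlaps *Zbtb22* on the same strand.

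The promoters of *B2m*, *H2-K1* and *H2-D1* are printed because these 3 of the 8 members with an entry in the RefSeq promoter table (GRCm38.p6, none for *Tap2* and *Nlrc5*) carried a spaced pair of motifs from the promoter module at which *Nlrc5* is known to act. The lines show the 210 bases that end just before the RefSeq start, 5′ to 3′ on the strand of the gene, for *B2m* at chr2:122147477-122147686 (plus strand), for 1 of the 2 entries of *H2-K1* at chr17:34000348-34000557 (minus strand) and for *H2-D1* at chr17:35262884-35263093 (plus strand). Capitals mark, from the 5′ end of *B2m*, an interferon-type match (AANNGAAA), an NF-kB-type match (GGGA, any 4 bases, CC), an X2-type match (TGACG) and a Y-type match (ATTGG) of the pair. Each motif was searched on both strands, the NF-kB-type matches of the 2 strands overlap, and single TGACG or ATTGG matches outside the pair are left in lower case. In *H2-K1* and *H2-D1* the NF-kB-type match comes before the interferon-type match, which lies on the other strand.
B2m: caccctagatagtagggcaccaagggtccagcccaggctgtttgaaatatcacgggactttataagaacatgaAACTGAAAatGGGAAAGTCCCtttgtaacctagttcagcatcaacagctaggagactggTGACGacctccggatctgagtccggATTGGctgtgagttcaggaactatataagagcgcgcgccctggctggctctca
H2-K1: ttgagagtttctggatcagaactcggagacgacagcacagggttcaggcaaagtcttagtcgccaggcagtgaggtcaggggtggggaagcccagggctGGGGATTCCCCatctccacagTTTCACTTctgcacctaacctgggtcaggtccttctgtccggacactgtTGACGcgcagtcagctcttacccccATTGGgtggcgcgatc
H2-D1: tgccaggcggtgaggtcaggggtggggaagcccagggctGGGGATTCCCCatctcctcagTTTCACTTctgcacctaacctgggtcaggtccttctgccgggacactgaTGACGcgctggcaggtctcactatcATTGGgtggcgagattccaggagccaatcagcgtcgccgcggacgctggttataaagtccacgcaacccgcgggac
TGACG followed 10 to 30 bases later by ATTGG was found in these 3 promoters and in 0.743% of all 32851 promoters of 300 bases (250 before and 50 after the start). The pair spanned 30 bases in each of the 3, from -78 to -49 in *B2m*, from -41 to -12 in *H2-K1* and from -101 to -72 in *H2-D1*. The same 3 promoters held the NF-kB-type match, which 20.7% of promoters hold, and the interferon-type match, which 23.9% hold and which was also found in *Erap1*. TGACG alone was in 20.8% and ATTGG alone in 37.4% of promoters. *Tap1*, *Tapbp*, *Psmb8*, *Psmb9* and *Erap1* did not hold the pair in this window. For *H2-D1* the RefSeq start and the printed bases lie inside the GENCODE gene given above, so its positions hold for the RefSeq start only. These matches describe letters and are not measured binding sites.

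**Figure D1:**
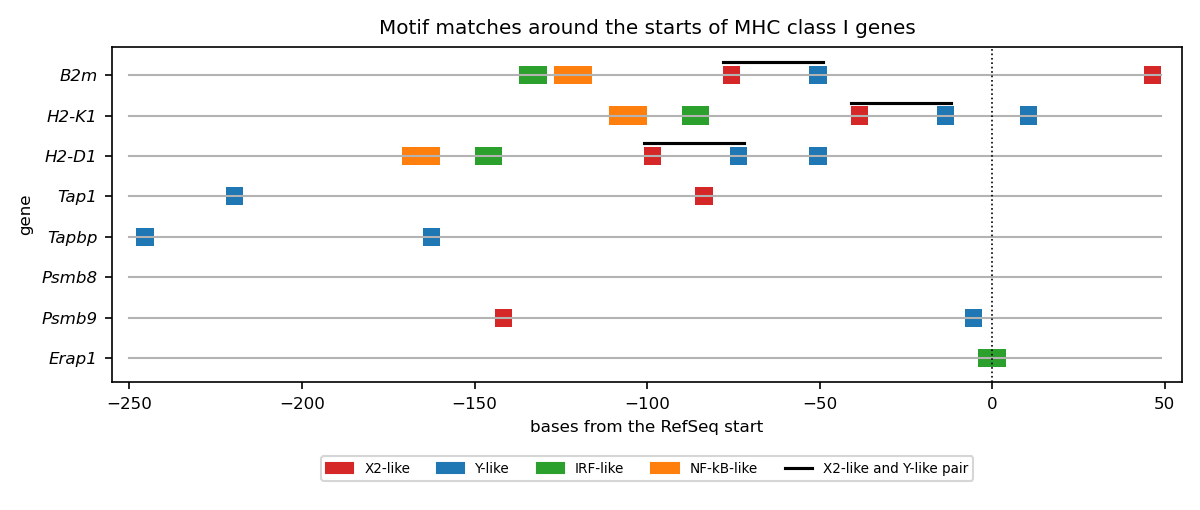
Positions of motif matches in the promoters of the 8 members with a RefSeq entry, in bases from the RefSeq start (dotted line). Colored boxes are single matches on either strand and black bars mark the X2-type and Y-type pair, which appears in *B2m*, *H2-K1* and *H2-D1* and in none of the other 5 promoters.

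Among the ZsG-negative classes of at least 25 cells, the 10 genes together took up the smallest part of all UMIs in DC1-like (0.620%, 28 cells) and B cell-like cells (0.621%, 39 cells) and the largest in plasmacytoid dendritic cell (pDC)-like cells (1.10%, 203 cells). DC1 and DC2 are the conventional dendritic cell types. T cell-like cells (1516) were at 0.743%, DC2-like cells (105) at 0.780%, monocyte/macrophage-like cells (259) at 0.797% and NK cell/ILC-like cells (2517) at 0.965%. Each lineage had its own mixture of the pathway, and surface chain, transport and proteasome genes did not rank the classes alike. DC1-like cells, the lineage known for showing captured antigen to CD8 T cells, had the lowest heavy chain levels and the highest *Psmb8*, *Psmb9* and *Tap2* levels of these classes.

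**Figure D2:**
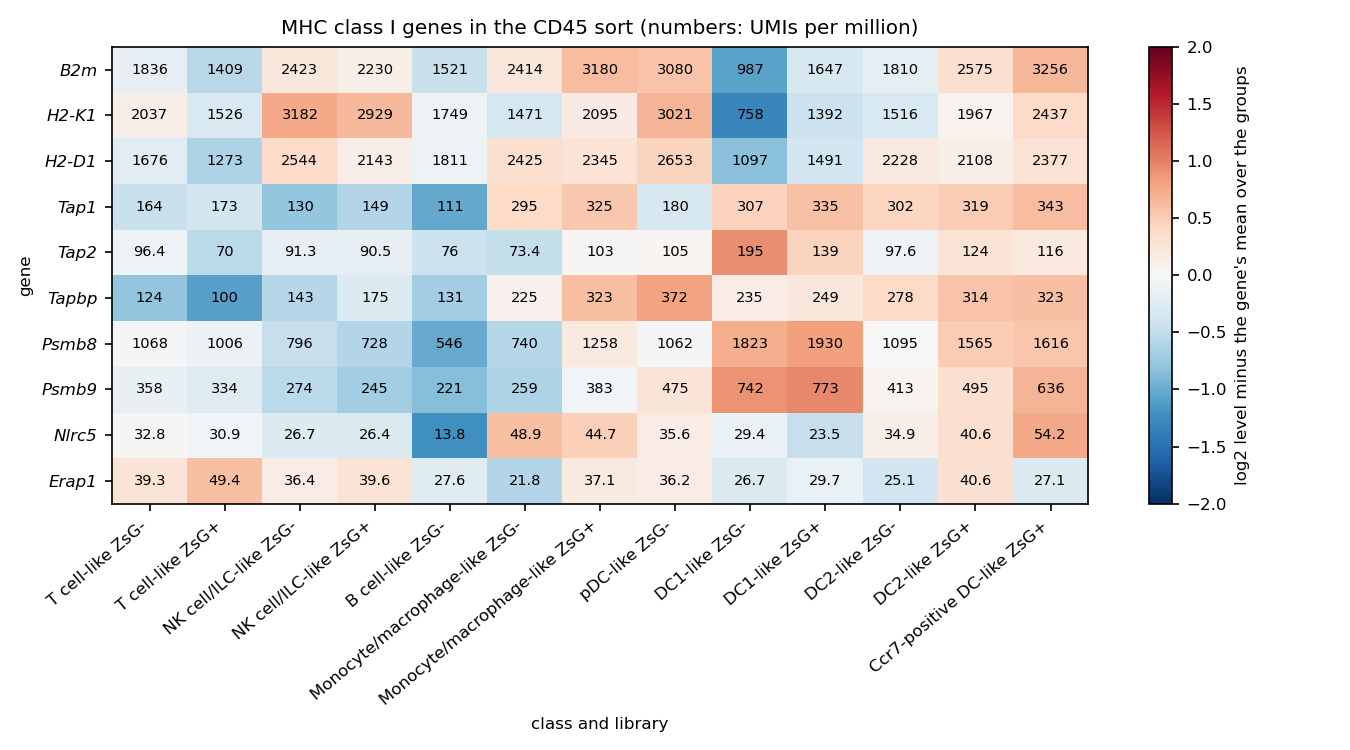
Level of each member (rows) in each class and library of the CD45 sort with at least 25 cells (columns). Numbers are CPM and color is the log2 level minus the mean of that gene over the 13 groups, so color compares classes within a gene, and the DC1-like columns are blue for *H2-K1* and red for *Psmb9*.

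In the ZsG-negative library, *B2m* and the heavy chains were highest in pDC-like and NK cell/ILC-like cells. *B2m* was at 987 CPM [889 to 1093] in DC1-like, 1521 CPM [1326 to 1735] in B cell-like, 1810.0 CPM [1732 to 1891] in DC2-like, 1836 CPM [1817 to 1855] in T cell-like, 2414 CPM [2351 to 2479] in monocyte/macrophage-like, 2423 CPM [2399 to 2448] in NK cell/ILC-like and 3080.1 CPM [3000.1 to 3162] in pDC-like cells. The intervals of DC2-like and T cell-like cells overlapped, as did those of monocyte/macrophage-like and NK cell/ILC-like cells. *H2-K1* ran from 758 CPM [672 to 851] in DC1-like cells to 3182 CPM [3154 to 3210.3] in NK cell/ILC-like cells, with T cell-like cells at 2037 CPM [2017 to 2057]. *H2-D1* ran from 1097 CPM [993 to 1208] in DC1-like to 2653 CPM [2579 to 2729] in pDC-like cells. The balance between the heavy chains differed between lineages. *H2-K1* gave 54.9% of the *H2-K1* and *H2-D1* UMIs in T cell-like and 55.6% in NK cell/ILC-like cells, against 37.8% in monocyte/macrophage-like cells.

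Compared with T cell-like cells of the same ZsG-negative library, NK cell/ILC-like cells were past the fold for 2 of the 10 members, both higher, where 17% of all 9626 genes tested were higher and 17% lower. These were *H2-K1* (log2 ratio 0.64 [0.62 to 0.66]) and *H2-D1* (0.60 [0.58 to 0.62]), each close to the limit of 1.5-fold, and neither stayed past it when cells were thinned to 2000 UMIs or log-normalized means were used. *B2m* stood at 0.40 [0.38 to 0.42] and *Psmb8* at -0.42 [-0.46 to -0.39]. The T cell-like class held a cluster led by *Klrb1c* and *Klra1*, with 389 ZsG-negative and 3 ZsG-positive cells. *Klrb1c* and *Ncr1*, both among its leading genes, are markers of the NK cell/ILC list. The part of that cluster in the ratios to T cell-like cells was not tested. pDC-like cells, the main makers of type I interferon, were higher for 3 members (all genes: 25.9% higher, 28% lower). *Tapbp* was at 124 CPM in T cell-like and 372 in pDC-like cells (1.59 [1.46 to 1.71]), and *B2m* (0.75 [0.71 to 0.79]) and *H2-D1* (0.66 [0.62 to 0.71]) were the others. The TMM scaling factor was 1.15 for these pDC-like and 1.00 for these T cell-like cells, so TMM scaling would lower each of these ratios. *B2m* and *H2-D1* lie nearest to the limit of 1.5-fold, and whether they stay past it under that scaling is not given. B cell-like cells were lower for *Psmb8* (-0.97 [-1.31 to -0.65]) and *Psmb9* (-0.69 [-1.24 to -0.19]), 2 members among 9.44% of genes higher and 10.5% lower, with 39 cells behind the values.

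*Tap1* and *Tapbp* were higher in myeloid than in T cell-like cells, whereas *Tap2* was past the fold only in DC1-like cells, at 96.4 CPM in T cell-like, 73.4 in monocyte/macrophage-like (-0.39 [-0.63 to -0.17]) and 97.6 in DC2-like cells (0.02 [-0.28 to 0.30]). *Tap1* was at 164 CPM in T cell-like and 130.4 in NK cell/ILC-like cells, and at 295 in monocyte/macrophage-like, 302 in DC2-like and 307 in DC1-like cells. The 3 myeloid values overlapped within their intervals and lay above both lymphoid values. Monocyte/macrophage-like cells were past the fold against T cell-like cells for *Tap1* (0.84 [0.72 to 0.96]) and *Tapbp* (0.86 [0.72 to 1.0]), both higher, and for *Erap1* (-0.85 [-1.29 to -0.43]), which was lower. Across all genes 23.8% were higher and 37.6% lower in that comparison, so 3 of 10 members was a smaller share than that of all genes. With mitochondrial and ribosomal protein genes left out of the totals, every ratio of that comparison was lower by 0.27, *Tapbp* (0.60) was the 1 member higher and 5 were lower, *H2-K1*, *Tap2*, *Psmb8*, *Psmb9* and *Erap1*. All genes shift with these totals, and their share past the fold in that setting is not given. DC2-like cells gave the same 3 members, *Tap1* (0.88 [0.71 to 1.04]), *Tapbp* (1.17 [0.99 to 1.34]) and, lower, *Erap1* (-0.65 [-1.25 to -0.11]), beside 17.1% of genes higher and 28.2% lower.

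DC1-like cells differed from T cell-like cells for 8 of the 10 members, 5 higher and 3 lower, where 11.8% of all genes were higher and 16.9% lower. The higher ones all belong to peptide generation and loading: *Psmb9* (358 and 742 CPM, 1.05 [0.87 to 1.23]), *Tap2* (96.4 and 195 CPM, 1.01 [0.66 to 1.35]), *Tapbp* (0.92 [0.60 to 1.23]), *Tap1* (0.90 [0.62 to 1.17]) and *Psmb8* (1068 and 1823 CPM, 0.77 [0.66 to 0.88]). The lower ones are the chains of the molecule itself, *H2-K1* (2037 and 758 CPM, -1.43 [-1.6 to -1.26]), *B2m* (-0.90 [-1.05 to -0.75]) and *H2-D1* (-0.61 [-0.76 to -0.47]). These ZsG-negative values come from 28 cells. In the ZsG-positive library 94 DC1-like cells were set against 800 monocyte-like cells, another reference class. *Psmb9* was higher than in these (390.4 and 773 CPM, 0.99 [0.89 to 1.09]). *B2m* (-0.78 [-0.84 to -0.72]), *H2-D1* (-0.78 [-0.85 to -0.72]), *Tapbp* (-0.64 [-0.80 to -0.49]) and *Nlrc5* (-1.39 [-1.91 to -0.90]) were lower. That made 1 member up and 4 down beside 18.7% and 22.3% of all genes. Set beside T cell-like cells of the ZsG-positive library, DC1-like cells had a higher *B2m* and a slightly lower *H2-K1* level (values below). The lower *B2m* of the ZsG-negative comparison with T cell-like cells was thus not seen again.

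*Nlrc5* and *Erap1* were the least counted members. *Nlrc5* lay between 26.7 CPM in NK cell/ILC-like and 48.9 in monocyte/macrophage-like cells of the ZsG-negative library, apart from 13.8 in the B cell-like cells, where only 2 UMIs were seen. *Erap1* lay between 21.8 in monocyte/macrophage-like and 39.3 in T cell-like cells, and *Tap1* had these 2 classes in the reverse order. After each cell was thinned to 2000 UMIs, *B2m* was seen in at least 84.6%, *H2-D1* in at least 85.7% and *H2-K1* in at least 81.9% of the cells of each class of at least 25 cells in either sort. The melanoma-like cluster of the T cell sort, described below, is not counted among these classes. *Psmb8* was seen in 69.2% of B cell-like and 98.9% of ZsG-positive DC1-like cells, the ends of its range. *Erap1* was seen in 0.952% to 14.0% and *Nlrc5* in 2.56% to 13.5% of cells, so these 2 genes are described by sums and not cell by cell.

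Among the ZsG-positive myeloid cells, monocyte-like cells had the highest *Tap1*, *Tapbp* and *Nlrc5* levels of the monocyte and macrophage clusters (399.9, 388 and 61.6 CPM). Non-classical monocyte-like cells (32 cells), the patrolling kind, were lower than monocyte-like cells for 7 members, with 10.5% of all genes lower and 9.33% higher. *Psmb8* (1497 and 658 CPM, -1.19 [-1.47 to -0.92]), *Tap1* (-0.88 [-1.39 to -0.41]) and *Tapbp* (-1.0 [-1.54 to -0.51]) were among them, while *H2-D1* stood at -0.16 [-0.31 to -0.02]. Macrophage-like cells led by *Mmp12* and *Nos2* (512 cells) had the highest *B2m* level among the CD45 sort groups of at least 25 cells (2829 CPM in monocyte-like and 4269 in these cells, 0.59 [0.56 to 0.62]) together with lower *Psmb8* (-0.65 [-0.71 to -0.60]) and *Tap2* (-0.86 [-1.05 to -0.67]), 1 member up and 2 down beside 14.2% and 16.7% of all genes. Macrophage-like cells led by *Ms4a7* and *Ccl8* (1493 cells) had no member past the fold (all genes: 18.4% higher, 8.33% lower), and those led by *Anln* and *Cadm1* (320 cells) had *Nlrc5* alone (-0.69 [-0.92 to -0.47]; all genes: 27.2% and 11.8%). DC2-like cells (456) were likewise lower for *Nlrc5* alone (-0.60 [-0.83 to -0.37]; 14.1% and 10.5%). Ccr7-positive DC-like cells (72), the mature migrating kind, were higher for *Psmb9* alone (636 CPM, 0.70 [0.57 to 0.83]; 14% and 28%). The 10 genes took up 1.12% of their UMIs, the largest share among the CD45 sort groups of at least 25 cells.

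Lymphoid cells of the ZsG-positive library were lower than these monocyte-like cells for 6 members each. T cell-like cells (114) were lower for 6 members, among them *Tapbp* (-1.95 [-2.17 to -1.74]), *Tap1* (-1.21 [-1.38 to -1.04]) and *B2m* (-1.01 [-1.06 to -0.95]), beside 30.4% of all genes lower and 35% higher. NK cell/ILC-like cells (113) were higher for *H2-K1* (1687 and 2929 CPM, 0.80 [0.72 to 0.87]) and lower for 6 members, from *Tap1* (-1.43 [-1.77 to -1.10]) to *Tap2* (-0.64 [-1.09 to -0.22]), beside 21.6% higher and 28.2% lower. The macrophage markers counted without *Ly6c2* and *Ccr2* stood at 275 CPM in these T cell-like and 694 in these NK cell/ILC-like cells, against 33.3 and 49.7 in the ZsG-negative library and 18020.3 in ZsG-positive monocyte/macrophage-like cells.

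The second question was whether cells of 1 class differed in these genes between the ZsG gates. In T cells of the T cell sort (650 ZsG-negative and 720 ZsG-positive) most of the pathway was close to level. *B2m* was at 2725 CPM in ZsG-negative and 2662 in ZsG-positive cells (-0.03 [-0.07 to -0.00014]), *H2-K1* at 2541 and 2565 (0.01 [-0.02 to 0.05]), and *H2-D1* at 2214 and 2226 (0.01 [-0.03 to 0.04]). All 3 ratios lay near 0 with narrow intervals. *Psmb9* was at 316 and 387 (0.29 [0.20 to 0.39]), short of the fold. *Nlrc5* was the only member past it, at 58.7 CPM in ZsG-negative and 39.0 in ZsG-positive cells (-0.59 [-0.84 to -0.34]), 1 member lower where 5.61% of all 7147 genes were lower and 7.64% higher. That ratio sat at the limit and fell short of it under 6 alternatives, with -0.54 without the CD3 limit, -0.39 with the T cell clusters weighted equally and -0.09 as a mean of log-normalized values, and it changes sign if the suffixes are read the other way.

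**Figure D3:**
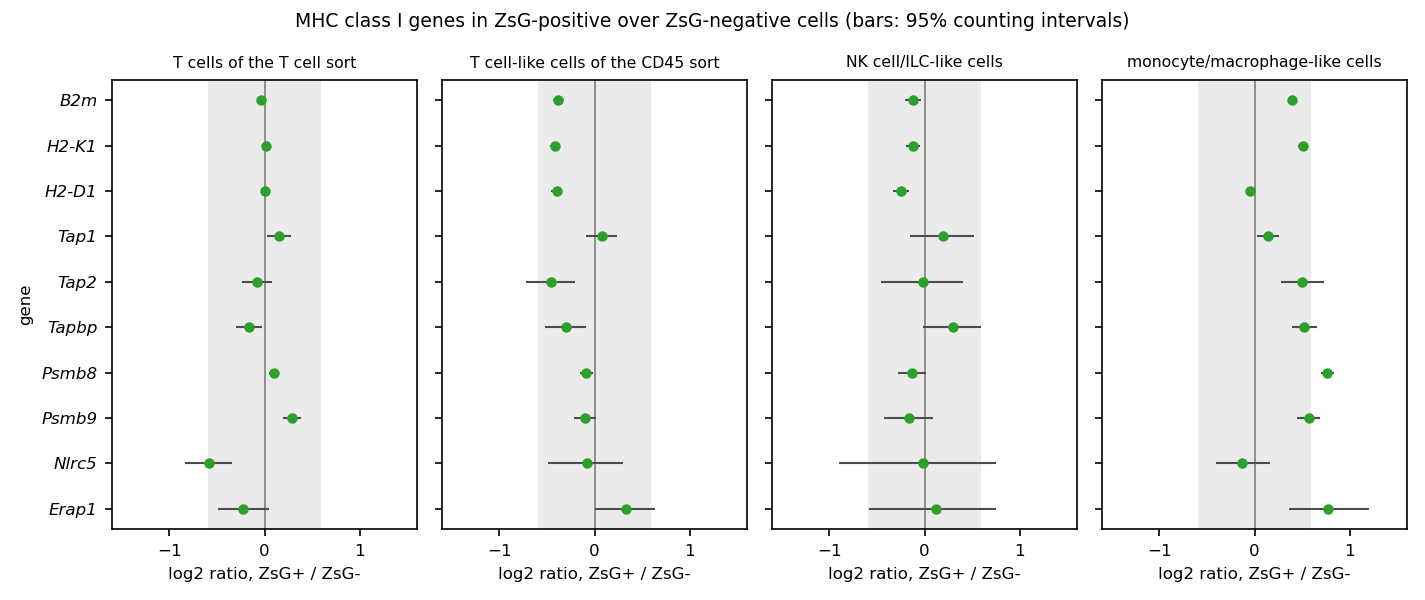
Log2 ratio of the level in ZsG-positive over ZsG-negative cells for each member in 4 classes, with 95% counting intervals. The gray band covers changes of less than 1.5-fold: the T cells of the T cell sort, T cell-like and NK cell/ILC-like cells lie within it apart from *Nlrc5* at its edge in the first, and *Psmb8* and *Erap1* lie to its right in monocyte/macrophage-like cells.

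In the CD45 sort, T cell-like cells (1516 and 114 cells) and NK cell/ILC-like cells (2517 and 113) had 0 members past the fold, with 4.99% of all genes higher and 6.94% lower in the first and 3.42% and 2.19% in the second. The positive gate of this sort took bright cells, and the paper states that its negative gate caught most lymphocytes that carried ZsG. For lymphoid cells these ratios therefore do not set cells with ZsG against cells without it. In T cell-like cells the surface chains were all lower in the ZsG-positive library, *B2m* at 1836 and 1409 CPM (-0.38 [-0.44 to -0.33]), *H2-K1* at 2037 and 1526 (-0.42 [-0.47 to -0.36]) and *H2-D1* at 1676 and 1273 (-0.40 [-0.46 to -0.34]). Thinned to 2000 UMIs a cell, *H2-K1* (-0.68) and *Tapbp* (-0.80) passed the fold, with no share of all genes given for thinned cells. These ZsG-positive cells were also deeper (median 14438 against 6926 UMIs) and had more macrophage marker UMIs (above). The make-up of the class differed between the gates as well. A cluster of these cells led by *Bcl2* and *Nsg2* held 256 ZsG-negative and 3 ZsG-positive cells. Another, led by *Ccl1* and *Shmt1*, held 200 and 48, and the cluster led by *Klrb1c* and *Klra1* held 389 and 3. The part of depth, macrophage markers or make-up in the result was not tested. In NK cell/ILC-like cells the ratios ran from -0.25 for *H2-D1* to 0.30 for *Tapbp*. When cells with more than 2 UMIs of macrophage markers were left out, 40 ZsG-positive NK cell/ILC-like cells remained, and *Tapbp* (0.83) and *Tap2* (0.73) were past the fold. The share of all genes past the fold among the remaining cells is not given.

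Monocyte/macrophage-like cells had 2 members past the fold between the gates. *Psmb8*, the immunoproteasome subunit that replaces *Psmb5*, was at 740.3 CPM in 259 ZsG-negative and 1258 in 3157 ZsG-positive cells (0.77 [0.70 to 0.84]), and *Erap1* at 21.8 and 37.1 (0.77 [0.36 to 1.2]). Both were higher, where 21.1% of all 9685 genes were higher and 18.8% lower, so the count is at the share of all genes. Another 5 members lay between 0.40 (*B2m*) and 0.57 (*Psmb9*), and *Tap1* (0.14 [0.03 to 0.25]), *H2-D1* (-0.05 [-0.09 to -0.01]) and *Nlrc5* (-0.13 [-0.41 to 0.16]) were nearer to no change. The median over the 10 members was 0.50 and over all genes 0.04. TMM scaling moved every ratio up by 0.24 and put 7 members past the fold, and under it *H2-D1* (0.19) and *Nlrc5* (0.11) were above 0. That shift applies to all genes alike, and their share past the fold under it is not given, so the 7 has no background beside it.

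The class was not made of the same cells in both libraries. Of the ZsG-negative cells 196 were non-classical monocyte-like and 57 monocyte-like, whereas the ZsG-positive cells held 32 and 800 of these and 3 macrophage-like clusters. Within monocyte-like cells no member was past the fold (all genes: 10% higher, 8.38% lower), with *Psmb8* at 1021 and 1497 CPM (0.55 [0.43 to 0.68]), *Tapbp* at 305 and 388 (0.35 [0.12 to 0.59]) and *B2m* at 0.11 [0.04 to 0.19]. Within non-classical monocyte-like cells none was either (2.16% and 4.1%), and *H2-K1* stood at -0.39 [-0.61 to -0.18] and *Psmb8* at 0.10 [-0.20 to 0.38]. The *Psmb8* ratio of the pooled class was thus larger than that of either cluster found in both libraries.

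Dendritic cells differed by lineage. In DC1-like cells the surface chains were higher in the ZsG-positive library, *B2m* at 987 and 1647 CPM (0.74 [0.58 to 0.90]) and *H2-K1* at 758 and 1392 (0.88 [0.70 to 1.06]), the 2 members past the fold beside 11.8% of all genes higher and 7.24% lower. *Psmb8* (0.08 [-0.04 to 0.20]) and *Psmb9* (0.06 [-0.13 to 0.25]) differed little between the gates. In DC2-like cells *Erap1* (0.70 [0.13 to 1.31]) alone was past the fold (14.2% and 11.4%), with *Psmb8* at 1095 and 1565 CPM (0.52 [0.43 to 0.60]) and *B2m* at 1810.0 and 2575 (0.51 [0.44 to 0.58]). Macrophage markers moved the same way, from 504 to 4183 CPM in DC1-like and from 1601 to 8183 in DC2-like cells, and their part in these differences was not tested.

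Within the T cell sort, some clusters of T cells differed from each other by more than the gates did. The 10 genes took up 0.651% of UMIs in ZsG-negative and 0.70% in ZsG-positive naive-like cells (led by *Dapl1* and *Igfbp4*, 80 and 37 cells) and 1.43% and 1.49% in regulatory T cell (Treg)-like cells (led by *Areg* and *Foxp3*, 29 and 104 cells). Treg-like cells, of the kind that restrains immune responses, had the highest heavy chain and transporter levels in CPM of the T cell clusters in both libraries. Depth differed between clusters, with a median of 5575 and 4973.5 UMIs in Treg-like against 22843 and 20928 in cycling cells. This order is thus one of parts of all UMIs and does not rank the clusters by UMIs per cell. *H2-K1* was at 1799 CPM in naive-like and 3902 in Treg-like cells of the ZsG-negative library (1.12 [0.97 to 1.26]) and at 1848 and 4283 in the ZsG-positive library (1.21 [1.06 to 1.36]). *H2-D1* was at 1387 and 3797 (1.45 [1.30 to 1.61]) and at 1385 and 3793 (1.45 [1.28 to 1.63]), and *Tap1* at 91.7 and 343 (1.90 [1.33 to 2.48]) and at 105 and 317 (1.6 [0.99 to 2.27]). Both libraries gave the same order for each of these genes, and the levels of the 2 gates in 1 cluster lay closer to each other than to those of the other cluster. That does not hold for every pair of clusters. The 10 genes took up 0.878% and 0.936% of UMIs in the cluster led by *Nrgn* and *Lag3*, and 0.827% and 0.886% in that led by *Klra7* and *Klra1*.

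A cluster led by *Trim30c* and *Ifit1*, genes that type I interferon induces, had the other high profile (74 and 46 cells; 1.25% and 1.34% of UMIs). Its *Tapbp* level was the highest of the T cell clusters, at 339.8 and 382 CPM against 155 and 135 in naive-like cells (1.13 [0.73 to 1.53] and 1.5 [0.90 to 2.13]). *Psmb8* was at 1611 and 1689.5 (1.39 [1.2 to 1.59] and 1.22 [0.96 to 1.49]). *Irf1*, a transcription factor of the interferon response, was close to its naive-like level (0.11 [-0.22 to 0.45] and -0.02 [-0.55 to 0.51]). Treg-like cells had less *Tapbp*, at 267 and 218 CPM beside their higher *H2-D1*.

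Counted against naive-like cells of the same library, the members past the fold and higher, among those with at least 100 UMIs, are given for the ZsG-negative library first. Treg-like cells had 7 of 7 (all genes: 41.8%) and 8 of 8 (53.1%). The *Trim30c* cluster had 8 of 8 (all genes: 24.6%) and 6 of 6 (30.7%). CD8 effector memory (CD8-EM)-like cells led by *Wdr95* and *Gzmk* had 7 of 8 (all genes: 38.3%) and 5 of 6 (43%), and those led by *Gzma* and *Ccl5* had 5 of 7 (all genes: 30.6%) and 5 of 7 (33.9%). Th1-like cells had 5 of 7 (all genes: 33.4%) and 3 of 5 (34.3%). Their name rests on 3 of 5 markers, and the mean log2 ratio of the 5 markers to the other cells was -0.054. Exhausted CD8 (CD8-Tex)-like cells had 3 of 7 (all genes: 42.3%) and 4 of 8 (44.4%) and cycling cells 4 of 8 (all genes: 50.7%) and 3 of 8 (49.6%). In CD8-Tex-like and cycling cells the share was thus near that of all genes. The cluster led by *Klra7* and *Klra1* had 1 of 8 (all genes: 15.1%) and 1 of 7 (17.8%). Members under 100 UMIs, mainly *Nlrc5*, *Erap1* and *Tap2*, dropped out of these counts, and a member that reached the minimum through its higher cluster was bound to count, so the counts describe and do not test.

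**Figure D4:**
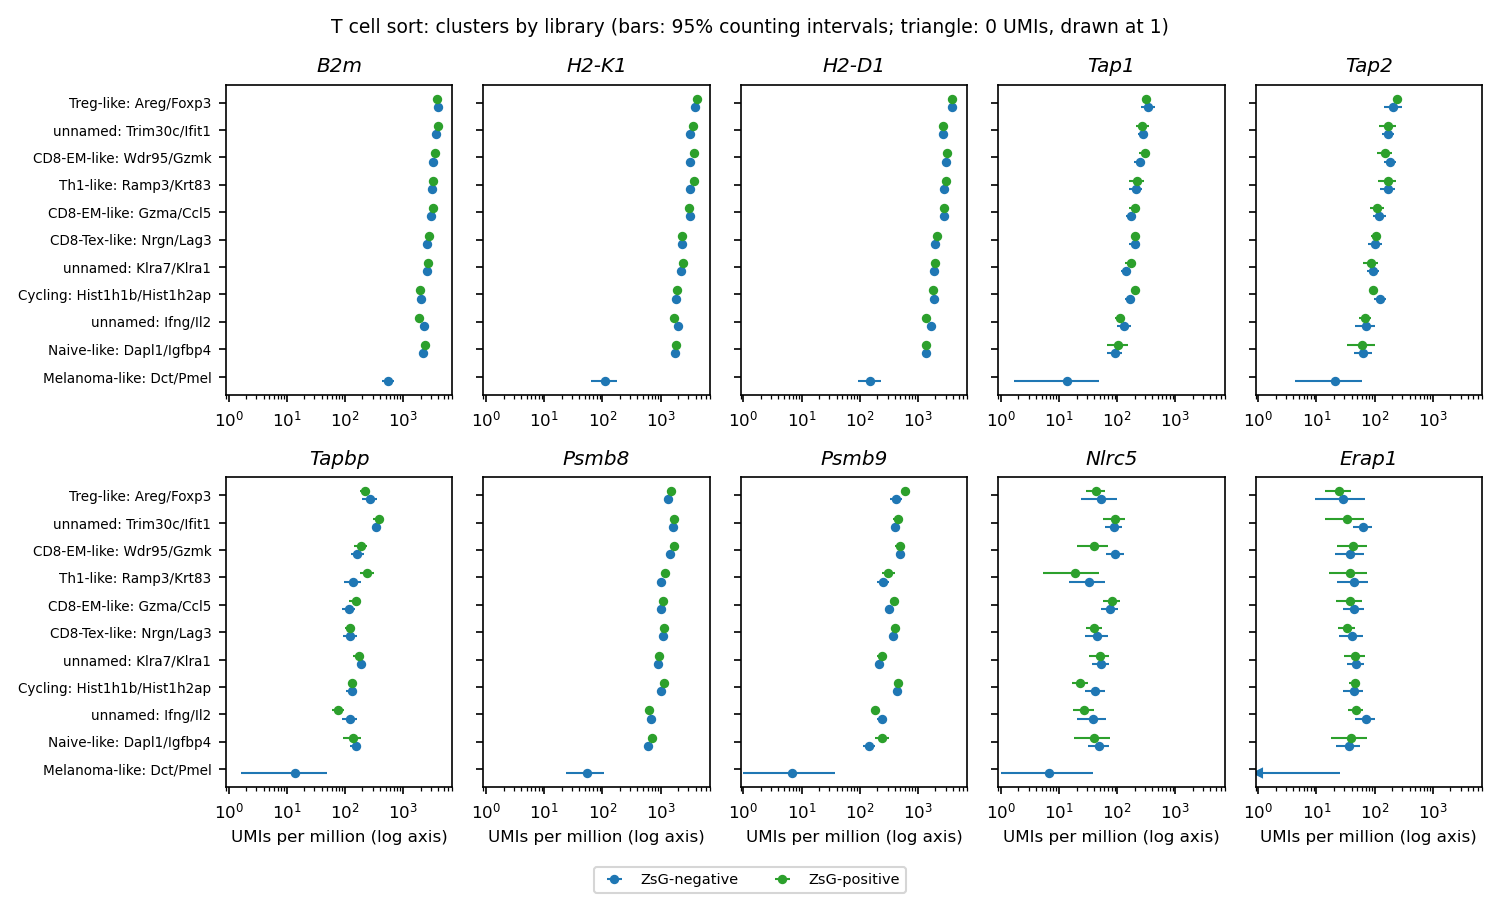
Level of each member (CPM, log axis from 1) in the T cell clusters and in the melanoma-like cells of the T cell sort, in ZsG-negative (blue) and ZsG-positive (green) cells, with 95% counting intervals that are cut where they pass below 1. The 2 gates lie side by side in most clusters, the Treg-like and *Trim30c* clusters lie to the right in most panels but not for *Erap1*, and the melanoma-like cells lie far to the left.

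The cluster led by *Ifng* and *Il2* (30 ZsG-negative and 66 ZsG-positive cells) carried the interferon gamma transcript at 5380.0 and 13458 CPM. Its class I levels in CPM were near those of naive-like cells. Its cells were deeper, with a median of 11003 and 12577.5 UMIs against 6262 and 5321 in naive-like cells. Levels in CPM are parts of all UMIs and not counts per cell. The cluster held 370075 UMIs in its 30 ZsG-negative and 965044 in its 66 ZsG-positive cells. Naive-like cells held 534233 in 80 and 228840 in 37 cells. The members took up 0.729% and 0.610% of UMIs in the cluster and 0.651% and 0.70% in naive-like cells. Per cell, the cluster thus held more member UMIs on average in both libraries. The part of depth in this was not tested. *Ifng* leads the cluster, so its level is no finding. The members and the pathway genes had been left out of the genes used for clustering. *B2m* was at 2248 and 1907 CPM (0.05 [-0.08 to 0.18] and -0.35 [-0.48 to -0.21] against naive-like cells), *H2-K1* at 1986 and 1672 (0.14 [0.0023 to 0.28] and -0.14 [-0.30 to 0.01]) and *Psmb8* at 689 and 636 (0.17 [-0.08 to 0.41] and -0.19 [-0.44 to 0.07]). Of the members with enough UMIs 1 of 6 (all genes: 44.8%) and 0 of 7 (53.4%) were past the fold and higher, the 1 being *Psmb9* (0.75 [0.30 to 1.21]), and in the ZsG-positive library *Tapbp* was lower (135 and 75.6 CPM, -0.84 [-1.47 to -0.18]; all genes lower: 11.1%). The receptor chain *Ifngr1* was at 94.6 and 58.0 CPM in these cells against 640.2 and 516 in naive-like cells (-2.76 [-3.30 to -2.25] and -3.15 [-3.64 to -2.68]). *Irf1*, which interferon gamma induces and which drives class I genes, was lower (-1.57 [-2.13 to -1.05] and -1.98 [-2.51 to -1.46]). *Erap1* was the member with its highest level here, at 70.3 and 47.7 CPM from 26 and 46 UMIs.

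Between the gates, members with at least 100 UMIs had ratios between -0.40 (*Tap2* in cycling cells) and 0.54 (*Psmb9* in Treg-like cells) in 8 of the 10 T cell clusters of at least 25 cells in each library. In naive-like cells *Psmb9* was at 144 and 240.3 CPM (0.74 [0.21 to 1.26]), the only member past it (all genes: 1.74% higher, 4.43% lower). In the *Ifng* and *Il2* cluster *Tapbp* was at 122 and 75.6 (-0.68 [-1.24 to -0.12]), also the only member (4.18% and 6.05%), and each of the 7 members with at least 100 UMIs there was lower in the ZsG-positive library, *B2m* at -0.24. Macrophage markers in that cluster stood at 10.8 CPM in ZsG-negative and 278 in ZsG-positive cells, and their part in these values was not tested.

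Each inducible subunit competes with a constitutive partner for a place in the proteasome, so the share of the pair's UMIs that came from the inducible gene was compared between groups. *Psmb8* of *Psmb8* and *Psmb5* was 91.1% and 91.5% in the *Trim30c* cluster, 85.5% and 85.4% in Treg-like cells, 79.6% and 81.0% in naive-like cells and 63.9% and 59.3% in the *Ifng* and *Il2* cluster (ZsG-negative first). *Psmb9* of *Psmb9* and *Psmb6* gave 75.6% and 78.0% in the *Trim30c* cluster and 44.6% and 36.8% in the *Ifng* and *Il2* cluster. *Psmb10*, the inducible subunit that is not among the 10 members, gave 89.4% and 89.3% against 51.9% and 40.6%. The *Ifng* and *Il2* cluster had the lowest share of the T cell clusters for each of the 3 pairs in both libraries, and its constitutive subunits were higher than in naive-like cells, *Psmb6* by 1.53 [1.05 to 2.02] and 1.84 [1.19 to 2.57] and *Psmb5* by 1.31 [0.91 to 1.71] and 1.36 [0.88 to 1.87]. In the CD45 sort, *Psmb9* gave 73.2% and 66.3% of its pair in DC1-like cells, 56.0% and 49.7% in T cell-like cells and 44.5% in ZsG-positive macrophage-like cells led by *Mmp12* and *Nos2*, whose *Psmb8* share was 86.1%. The 3 pairs thus gave these macrophage-like cells different places in the order of groups.

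**Figure D5:**
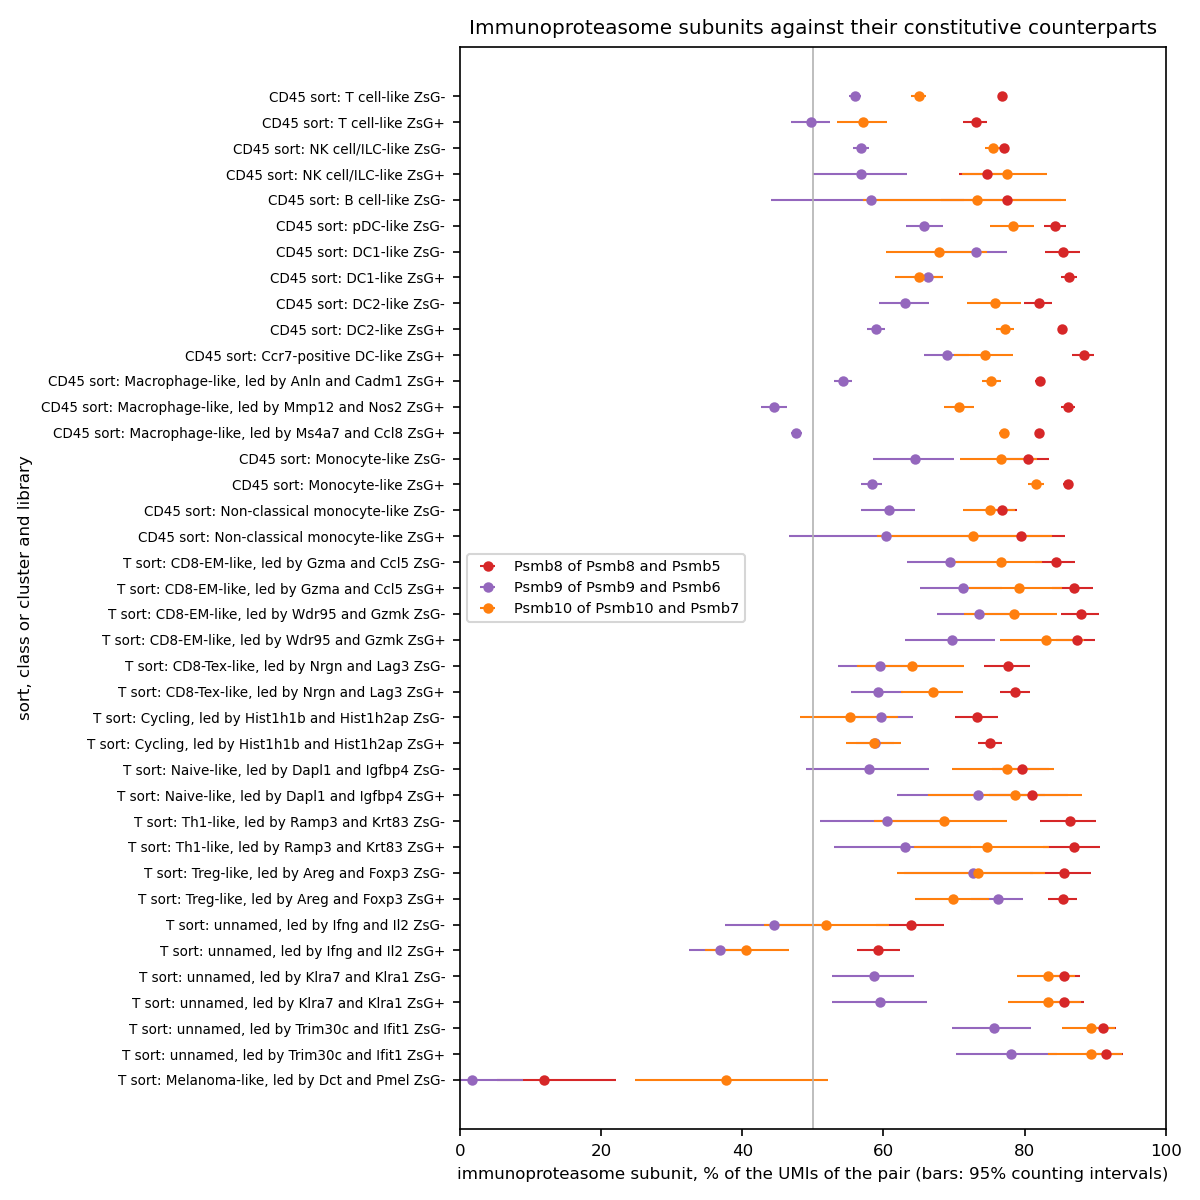
Share of the UMIs of a pair that came from the inducible subunit (%), for each class or cluster and library with at least 25 cells, with exact binomial 95% intervals for counting error. The vertical line marks equal counts: the *Trim30c* cluster lies farthest right, the *Ifng* and *Il2* cluster lies lowest among the T cells, and the melanoma-like cells lie left of the line for all 3 pairs.

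Without the CD3 limit, the T cell sort held a small cluster led by the pigment genes *Dct* and *Pmel*. Comparing it with T cells was chosen after its values had been seen. Its 25 ZsG-negative cells carried the 5 melanocyte markers at 18409.9 CPM, T cell markers at 13.7 CPM (T cells: 5876) and none of the 12 monocyte/macrophage markers, and they are called melanoma-like here although they came from a T cell gate. Their 146063 UMIs (median 2538 a cell, T cells 5775) set wide intervals. The 10 genes took up 0.0931% of their UMIs, against 0.941% in T cells of the same library. These cells came from the ZsG-negative gate although the tumor clone made ZsG, and why was not tested. They may therefore not stand for the tumor cells at large. The cluster also held 6 ZsG-positive cells, too few for the limit of 25. In those the 10 genes took up 0.424% of UMIs, with melanocyte markers at 3324 CPM and T cell markers at 1704 CPM.

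All 10 members were past the fold and lower in melanoma-like cells, where 27.3% of all genes were lower and 18.3% higher. *B2m* had the ratio nearest to 0, with 81 UMIs or 555 CPM [440.4 to 689] against 2725 in T cells (-2.30 [-2.63 to -1.98]). The heavy chains had 16 UMIs for *H2-K1* (109.5 and 2541 CPM, -4.54 [-5.34 to -3.84]) and 22 for *H2-D1* (-3.88 [-4.55 to -3.28]). *Psmb8* had 8 UMIs (-4.25 [-5.46 to -3.27]), *Psmb9* 1 (-5.53 [-10.83 to -3.05]), *Tap1* 2 (-3.72 [-6.77 to -1.86]), *Tapbp* 2 (-3.65 [-6.69 to -1.79]), *Tap2* 3 (-2.57 [-4.86 to -1.02]) and *Nlrc5* 1 (-3.10 [-8.41 to -0.61]). *Erap1* had none, and a set floor of 3 counts (20.5 CPM over these cells) lay 2.28-fold below its level in T cells. This floor is a setting and not the exact interval used for the other ratios. With *Erap1* at that floor the median over the members was -3.68, against -0.46 over all genes. After thinning to 2000 UMIs, 33.3% of 15 melanoma-like cells had a *B2m* UMI and 6.67% an *H2-K1* UMI, and unthinned the shares over 25 cells were 48.0% and 8.00%.

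The constitutive proteasome went the other way in these cells. *Psmb5* was at 229 CPM in T cells and 404 in melanoma-like cells (0.82 [0.41 to 1.19]), *Psmb6* at 188 and 404 (1.11 [0.70 to 1.49]) and *Psmb7* at 101 and 226 (1.16 [0.61 to 1.67]), all 3 past the fold. *Psmb9* gave 1.67% of its pair, *Psmb8* 11.9% and *Psmb10* 37.7%. Of the 26 other pathway genes with enough UMIs, 18 were lower and 5 higher, beside 27.3% and 18.3% of all genes. These counts rest on the same minimum and likewise do not test. Among the lower were *Irf1* (-4.93 [-10.24 to -2.45]), *Ifngr1* (-4.14 [-5.59 to -3.02]) and the proteasome activator genes *Psme1* (-2.92 [-3.79 to -2.17]) and *Psme2* (-2.01 [-2.75 to -1.37]). The 5 higher ones were the 3 constitutive subunits, the chaperone *Canx* (0.76 [0.20 to 1.27]) and *Rfxap* (1.04 [0.18 to 1.79]), a part of the complex that binds MHC promoters.

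The other 32 genes of the pathway, kept in 6 lists, were counted in the same comparisons. Between ZsG-positive and ZsG-negative monocyte/macrophage-like cells, 12 of 32 were past the fold and higher and 4 lower, beside 21.1% and 18.8% of all genes. The immunoproteasome and activator list gave 3 of 3, *Psmb10* (0.83 [0.72 to 0.95]), *Psme1* (0.74 [0.65 to 0.83]) and *Psme2* (0.95 [0.86 to 1.05]), and the constitutive list gave 2 of 3, *Psmb6* (1.25 [1.10 to 1.41]) and *Psmb7* (0.71 [0.51 to 0.92]), so inducible and constitutive subunits were both higher. Among the other heavy chains *H2-Q6*, *H2-Q7*, *H2-T22* and *H2-M3* were higher, the largest being *H2-Q7* (145 and 283 CPM, 0.97 [0.81 to 1.13]), and *Cd1d1* was lower (-0.82 [-1.52 to -0.03]). The chaperones *Calr* (1.17 [1.08 to 1.25]) and *Pdia3* (0.64 [0.54 to 0.75]) were higher. The regulators went down or stayed, with *Irf1* at 1385 and 494 CPM (-1.49 [-1.54 to -1.43]). In the interferon gamma list *Ifngr1* was at 425 and 106 (-2.01 [-2.11 to -1.90]), *Jak1* was also lower (-0.63 [-0.76 to -0.50]) and *Ifng* higher (1.32 [0.50 to 2.28]). *Ifng* was scarce in these cells, at 5.24 and 13.1 CPM from 12 and 494 UMIs, against 559 CPM in ZsG-negative T cell-like cells. Which cells these UMIs came from was not tested. Within monocyte-like cells the immunoproteasome and activator list was higher in the ZsG-positive library. *Psmb10* was at 345 and 586 CPM, *Psme1* at 597 and 821 and *Psme2* at 537 and 904. In non-classical monocyte-like cells these genes were at 249 and 235, 398 and 452, and 323 and 417. The differences of 4 other genes were smaller within the clusters found in both libraries than in the pooled class. *Ifngr1* stood at -0.66 [-0.96 to -0.35] within monocyte-like and -0.29 [-0.67 to 0.06] within non-classical monocyte-like cells, *Irf1* at -0.75 [-0.87 to -0.64] and -0.35 [-0.57 to -0.14], *Calr* at 0.80 [0.64 to 0.97] and -0.34 [-0.75 to 0.04], and *Psmb6* at 0.58 [0.29 to 0.88] and -0.13 [-0.82 to 0.49].

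In T cells of the T cell sort, 2 of the 27 pathway genes with enough UMIs were higher and 3 lower, beside 7.64% and 5.61% of all genes. *Ifng* was at 654 CPM in ZsG-negative and 2324 in ZsG-positive cells (1.83 [1.77 to 1.89]) and *Irf8* at 126 and 201 (0.68 [0.54 to 0.82]). The cluster led by *Ifng* and *Il2*, with the *Ifng* levels given above, held 30 of these ZsG-negative and 66 of these ZsG-positive cells. Its part in the *Ifng* ratio was not tested. *Ifngr1* (-0.62 [-0.69 to -0.55]), the kinase *Jak1* (-0.61 [-0.71 to -0.52]) and the heavy chain *H2-Q4* (-0.59 [-0.76 to -0.41]) were lower. In CD45-sorted T cell-like cells, 0 of 29 were higher and 2 lower beside 4.99% and 6.94% of all genes, *H2-Q4* (-0.62 [-0.95 to -0.31]) and *Ifngr1* (469 and 213 CPM, -1.14 [-1.28 to -1.0]). *Ifng* was level between the gates in those cells (559 and 563 CPM, 0.01 [-0.08 to 0.10]). NK cell/ILC-like cells had 1 of 30 past the fold, *Ifng* (0.74 [0.35 to 1.12]), beside 3.42% of all genes higher and 2.19% lower. In NK cell/ILC-like cells *Ifngr1* stood at -0.41 [-0.54 to -0.28].

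Between classes of the ZsG-negative library, monocyte/macrophage-like cells had 7 of 30 pathway genes higher and 10 lower than T cell-like cells, at or below the shares of all genes (23.8% and 37.6%). *Irf1* (178 and 1385 CPM, 2.96 [2.89 to 3.03]) and *Irf8* (1.49 [1.41 to 1.58]) were among the higher and the heavy chains *H2-Q7* (799 and 145 CPM, -2.46 [-2.62 to -2.31]) and *H2-Q6* (-2.08 [-2.44 to -1.74]) among the lower, and all 3 constitutive subunits were lower. NK cell/ILC-like cells had 7 of 30 higher and 2 lower beside 17% and 17% of all genes, with *Ifngr1* (1.37 [1.33 to 1.41]) and *Jak1* (1.06 [1.01 to 1.10]) higher and *Ifng* (559 and 68.7 CPM, -3.02 [-3.12 to -2.93]) lower.

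The 10 members did not share 1 profile over the 13 groups of the CD45 sort. Against the mean of their centered log2 profiles, which includes each gene itself, Pearson's r was 0.865 for *Tapbp*, 0.743 for *Nlrc5*, 0.730 for *Tap1*, 0.708 for *Psmb8*, 0.636 for *B2m*, 0.206 for *H2-K1* and -0.0250 for *Erap1*. *H2-K1* and *Erap1* thus followed it least. Of 5511 other genes with a mean of at least 20 CPM, those most like the mean profile were *Cpne2* (0.925), *Fbxo6* (0.923), *Colgalt1* (0.918), *Dok1* (0.912) and *Krcc1* (0.910), followed by *Atp5l*, *Mvp*, *Grn*, *Tmem256* and *Npc2*. The groups come from 2 libraries that differ in depth and cell types, so these values are a description.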

How the data were processed

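Droplet 3' single-cell RNA sequencing was measured in 4 libraries from tumors of day 8. The deposited values are UMI counts per gene and cell barcode, which the authors made with Cell Ranger (6.1.2 per the methods and the submitters' processing notes; 7.0.0 in the header of the CD45 sort matrix), aligning to mm10 and joining both libraries of a sort. None of the sources used here says whether that step evened their depth. The members and lists were chosen with earlier results of these data known.

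Cells were kept as the study's methods state: genes in at least 3 cells, 1000 to 6000 genes and under 10% mitochondrial UMIs a cell (CD45 sort), or 50 to 6000 genes, under 15% and at least 0.055% CD3 UMIs (T cell sort). Seurat 5.3.0 (R 4.3.3) clustered them on 2000 variable genes and 20 components at resolutions of 0.8 and 1.2. A cluster was called X-like from its best list where at least 3 of the markers, and at least 50% of them, were raised 1.2-fold with a UMI in 10% of its cells, and no other list had more markers among its 10 leading genes. CD8 lists needed more *Cd8a* than *Cd4* and Th1 and Treg lists the reverse. In the T cell sort at least 1 marker also had to be among the 10 leading genes, and clusters without one stayed unnamed even with most markers raised. This naming rule was set after the clusters were seen. Doublets were scored with Scrublet (scanpy 1.11.5) and not removed in the main analysis. It called 1 and 1 kept cells in the CD45 sort, where it did not work, and 18 and 2 in the T cell sort.

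For each group, the UMIs of its cells were added up per gene and divided by their total (Python 3.11.15, pandas 2.3.3, numpy 2.4.6). Levels have exact Poisson intervals, ratios exact conditional binomial intervals and shares exact Clopper-Pearson intervals at 95% (scipy 1.17.1), for counting error only. With 1 library per gate no test between samples could be made. The gene lists of the sorts differ, so the sorts are set side by side. Shares of cells were taken after thinning each cell to 2000 UMIs and leaving out shallower cells. The calls were tried on simulated Poisson counts with known folds. These held no variation between cells or libraries, so the trial covers counting error only. Alternatives included TMM factors from edgeR 4.0.16. Named genes are the 10 members, the 32 pathway genes of 6 lists (1 of them counted but not reported by name here) and the 10 genes most like the members' mean profile. The leading genes of a cluster are named only to identify it. No column of values went unassigned to a sample. Figures were drawn with matplotlib 3.10.9.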

Additional observations from a re-analysis of the deposited data

How the results depend on the processing

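All ratios rest on 1 library per gate, which leaves no replicate to compare and no library to leave out. No paired analysis was possible because each sort holds 1 library per gate and no result comes from a test. *Nlrc5* and *Erap1* had few UMIs, which limits how small a difference can be seen in them. Of the ratios of single members under 14 alternatives, 569 kept their direction where called and their side of the fold, 30 newly passed it, 19 no longer did and 2 turned.

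In T cells of the T cell sort, the 1 member past the fold (*Nlrc5*) became 0 without the top 5% of doublet scores, with log-normalized means, with classes from the highest marker score, without the CD3 limit, with T cell clusters weighted equally and without cells of more than 2 macrophage marker UMIs, the last chosen after seeing the data. With the barcode suffixes swapped it was 0.59. In NK cell/ILC-like cells the count went from 0 to 2 without such cells, and *Tap2* turned from -0.01 to 0.73. Thinning to 2000 UMIs took CD45-sorted T cell-like cells from 0 to 2. In monocyte/macrophage-like cells the count of 2 became 7 with TMM factors, 4 with thinned cells, 4 without the top doublet scores, 1 with log-normalized means and 5 over the clusters with at least 25 cells in each library. The last setting holds 832 ZsG-positive and 253 ZsG-negative cells, of which 800 and 57 were monocyte-like and 32 and 196 non-classical monocyte-like. It therefore does not match the make-up of the gates, and within either cluster no member was past the fold. Over T cell-like cells, the 3 of monocyte/macrophage-like cells became 5 with TMM factors, 6 with totals without mitochondrial and ribosomal protein genes, 5 with a mitochondrial limit of 5% and 1 with log-normalized means. The 2 of NK cell/ILC-like cells became 1 with TMM factors, 1 with totals without mitochondrial and ribosomal protein genes, and 0 with thinned cells or log-normalized means. Several of these ratios lie close to the limit, and the cause of each change was not tested. Shares of all genes are not given under the alternatives, so these counts have no background beside them.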
